A study of Saccharomyces cerevisiae with 8 samples.

Results

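The spliceosome and splicing factor genes of budding yeast were followed in poly(A) RNA from 8 strand-specific libraries. The 59 genes were chosen by name from the 6569 in the deposited table, as proteins of the small nuclear ribonucleoproteins (snRNPs), the Prp19 complex and the splicing helicases. All 59 were measured and passed the filter on low values, and 0 of them were listed at 0 in any library. Their mean scaled signal in untreated cells ran from 37.1 to 502. Wild-type BY4741 (MATa, with ura3-delta-0, met15-delta-0, leu2-delta-0 and his3-delta-0) was grown in YPD at 30 °C to an OD of 0.5. Cultures had no drug, or 200 ng/mL of rapamycin for 10 or 60 min, with 2 biological replicates per group. Rapamycin blocks TORC1, a kinase complex that couples growth to nutrients. A MATalpha strain with prp4-1 (and with his3-delta-200, ura3-52, ade2- and a leu2 allele) and a prp4-1 strain labelled k-HIS3:pGAL1-IFH1 were grown in YPD at 26 °C, with 1 library each. In that strain IFH1, an activator of ribosomal protein genes, is labelled as lowered by about 50%. Both strains of this pair carry the spliceosomal mutation prp4-1, and the pair had no library without it.

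Introns are removed in 2 chemical steps by a machine that is built anew on each transcript. The U1 snRNP pairs with the 5′ splice site, the U2 snRNP pairs with the branch point, and the U4/U6.U5 tri-snRNP then joins. RNA helicases unwind U1 and U4, the Prp19 complex stabilises the active centre, and further helicases drive the steps and take the machine apart. In budding yeast few genes have introns, but ribosomal protein genes are rich in them and make up a large part of the transcripts that need splicing.

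The labels held in checks of IFH1, rapamycin and mating type, while the marker alleles were not settled. IFH1 had a scaled signal of 154 in prp4-1 and 86.1 in the strain with lowered IFH1. GAP1, which is switched on when TORC1 is inhibited, lay at 21.8 and 29.4 in the untreated libraries and between 2640 and 2884 in the 4 treated ones. All 5 markers of MATa cells (STE2, BAR1, MFA1, MFA2 and STE6) were higher in each wild-type library than in either library of the prp4-1 pair, and all 4 markers of MATalpha cells were lower. The pair differed at marker genes too: URA3 had a signal of 111 in prp4-1 and was listed at 0 in the other strain, and LEU2 had 1386 and 622. ADE2 had 159 and 231. Signal was thus present in prp4-1 at genes that its label gives as mutant. Libraries had total scaled signals between 2025663 and 3319861, with unknown read depth. Across the 59 genes, which are not independent, the replicates' r was 0.982 without drug, and 0.995 at 10 min as at 60 min.

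Ribosomal protein transcripts filled much of the untreated libraries and little of the 60 min ones, so scaling bears on every direction given here. The 139 cytosolic ribosomal protein genes, taken by name, held 28.4% and 29.7% of the signal in untreated cells, 24.2% and 23.0% at 10 min, and 2.48% and 2.51% at 60 min. On the deposited scale the median of all 6127 genes tested changed by -0.02 on the log2 scale at 10 min and by -0.00 at 60 min, so "lower" below means lower against the median gene. Scaling each library to the same total signal raised that median by 0.21 at 10 min and by 0.66 at 60 min. The 59 splicing genes together held 0.223% and 0.227% of all signal in untreated cells, 0.197% and 0.213% at 10 min, and 0.304% and 0.319% at 60 min.

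The sequences that the results refer back to are of 2 kinds. Introns in the models of splicing genes are shown because transcripts with introns are also substrates of the machine. Their splicing was not measured here. The deposited gene models give introns to 3 of the 59 genes, with bases read from the R64 genome, on which 58 of the 59 genes had the same start and end. Capitals mark the first 6 bases, the branch point motif TACTAAC and the last 3 bases.
SMD2 intron, chrXII:694383-694472, + strand: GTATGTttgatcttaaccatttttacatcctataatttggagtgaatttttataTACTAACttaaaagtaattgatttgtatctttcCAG
MUD1 intron, chrII:479346-479434, + strand: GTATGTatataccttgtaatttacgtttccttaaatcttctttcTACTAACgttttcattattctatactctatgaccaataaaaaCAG
PRP5 intron, chrII:691967-692133, + strand: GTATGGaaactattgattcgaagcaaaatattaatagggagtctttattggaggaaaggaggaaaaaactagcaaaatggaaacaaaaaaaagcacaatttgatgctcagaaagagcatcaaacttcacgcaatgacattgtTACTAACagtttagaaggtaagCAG
SMD2 and MUD1 share the same first 6 bases. The PRP5 model differs from R64. It starts at 691925, its intron begins with other letters, and the R64 start at 691969 lies inside that intron. All 3 introns hold TACTAAC and end in CAG.

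Promoters are shown for 3 of the 4 splicing genes that hold both of 2 motifs known from ribosome assembly genes. PAC was searched as GATGAG and the RRPE core as AAAATTT, on both strands, in the 250 bases before the R64 start. The windows run from 250 bases before the start to the 50th base of the gene, and capitals mark the matches. Where AAAATTTT occurs, the RRPE core matches on both strands at overlapping places.
PRP43, chrVII:283888-284187, - strand: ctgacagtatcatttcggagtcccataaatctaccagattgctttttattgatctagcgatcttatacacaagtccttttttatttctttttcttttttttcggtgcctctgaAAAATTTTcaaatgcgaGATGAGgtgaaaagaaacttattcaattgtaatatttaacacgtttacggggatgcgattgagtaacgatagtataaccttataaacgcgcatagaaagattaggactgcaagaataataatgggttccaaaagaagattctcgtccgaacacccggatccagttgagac
CWC2, chrIV:87177-87476, - strand: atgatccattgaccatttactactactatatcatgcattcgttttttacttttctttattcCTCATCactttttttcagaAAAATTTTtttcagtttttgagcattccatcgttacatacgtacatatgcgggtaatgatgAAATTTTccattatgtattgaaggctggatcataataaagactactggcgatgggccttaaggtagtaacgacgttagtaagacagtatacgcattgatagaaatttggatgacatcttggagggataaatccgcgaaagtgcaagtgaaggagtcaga
SNU66, chrXV:896338-896637, - strand: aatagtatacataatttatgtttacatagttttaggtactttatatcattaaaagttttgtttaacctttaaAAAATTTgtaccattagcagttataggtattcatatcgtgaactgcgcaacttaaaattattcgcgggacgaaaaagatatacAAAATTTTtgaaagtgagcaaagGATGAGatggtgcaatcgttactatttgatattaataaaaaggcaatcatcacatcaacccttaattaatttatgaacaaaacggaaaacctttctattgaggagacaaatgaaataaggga

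Splicing genes as a set moved modestly at 10 min, mostly downwards. Of the 59, 32 were lower (54.2%) and 5 higher (8.47%) by limma at an adjusted p under 0.05, against 30.2% lower and 26.8% higher of all genes tested. Under total-signal scaling 26 were lower and 10 higher, against 18.7% and 41.7% of all genes. The median log2 change was -0.41, or -0.19 under total-signal scaling, and the quartiles were -0.62 and -0.03. PRP43, PRP24 and SYF2 (5.08% of the set, against 13.8% of all genes) passed 2-fold, each downwards.

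At 60 min the set had spread out around the median gene. There were 31 lower (52.5%) and 15 higher genes (25.4%), against 38.5% and 38.6% of all genes tested. The split turned under total-signal scaling, with 4 lower and 35 higher, against 18.3% and 65.3% of all genes. The 4 that were lower under both scalings were PRP43, SMB1, PRP39 and MUD2, and all 15 genes that were higher on the deposited scale were higher under both. The median was -0.25 on the deposited scale and 0.43 under total-signal scaling. Only PRP43 and MUD2 were lower by at least 2-fold on the deposited scale and only LEA1 and PRP5 higher, which is 6.78% of the set against 33.9% of all genes. The interquartile range of the changes was 0.92 among the splicing genes and 1.31 among all genes, after 0.59 and 0.68 at 10 min.

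The 2 times share their untreated libraries, so each time's calls are set side by side without a correlation. On the deposited scale 22 genes were lower at both times and 3 higher at both (NAM8, LEA1 and PRP4). By these calls another 9 were lower and 10 higher at 60 min alone, 8 were lower and 2 higher at 10 min alone, and 3 (PRP21, ISY1 and PRP22) were called at neither time. SNP1 and PRP3 were lower at 10 min and higher at 60 min. The shares of all genes with these patterns were not counted, so the patterns cannot be set against the rest. In the direct comparison of 60 with 10 min, 28 of the 59 genes were higher (47.5%, against 35.4% of all genes) and 10 lower (16.9%, against 33.8%). The 28 were also higher under total-signal scaling, where 45 were higher and only PRP43 was lower, against 61.7% and 14.8% of all genes.

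**Figure D1:**
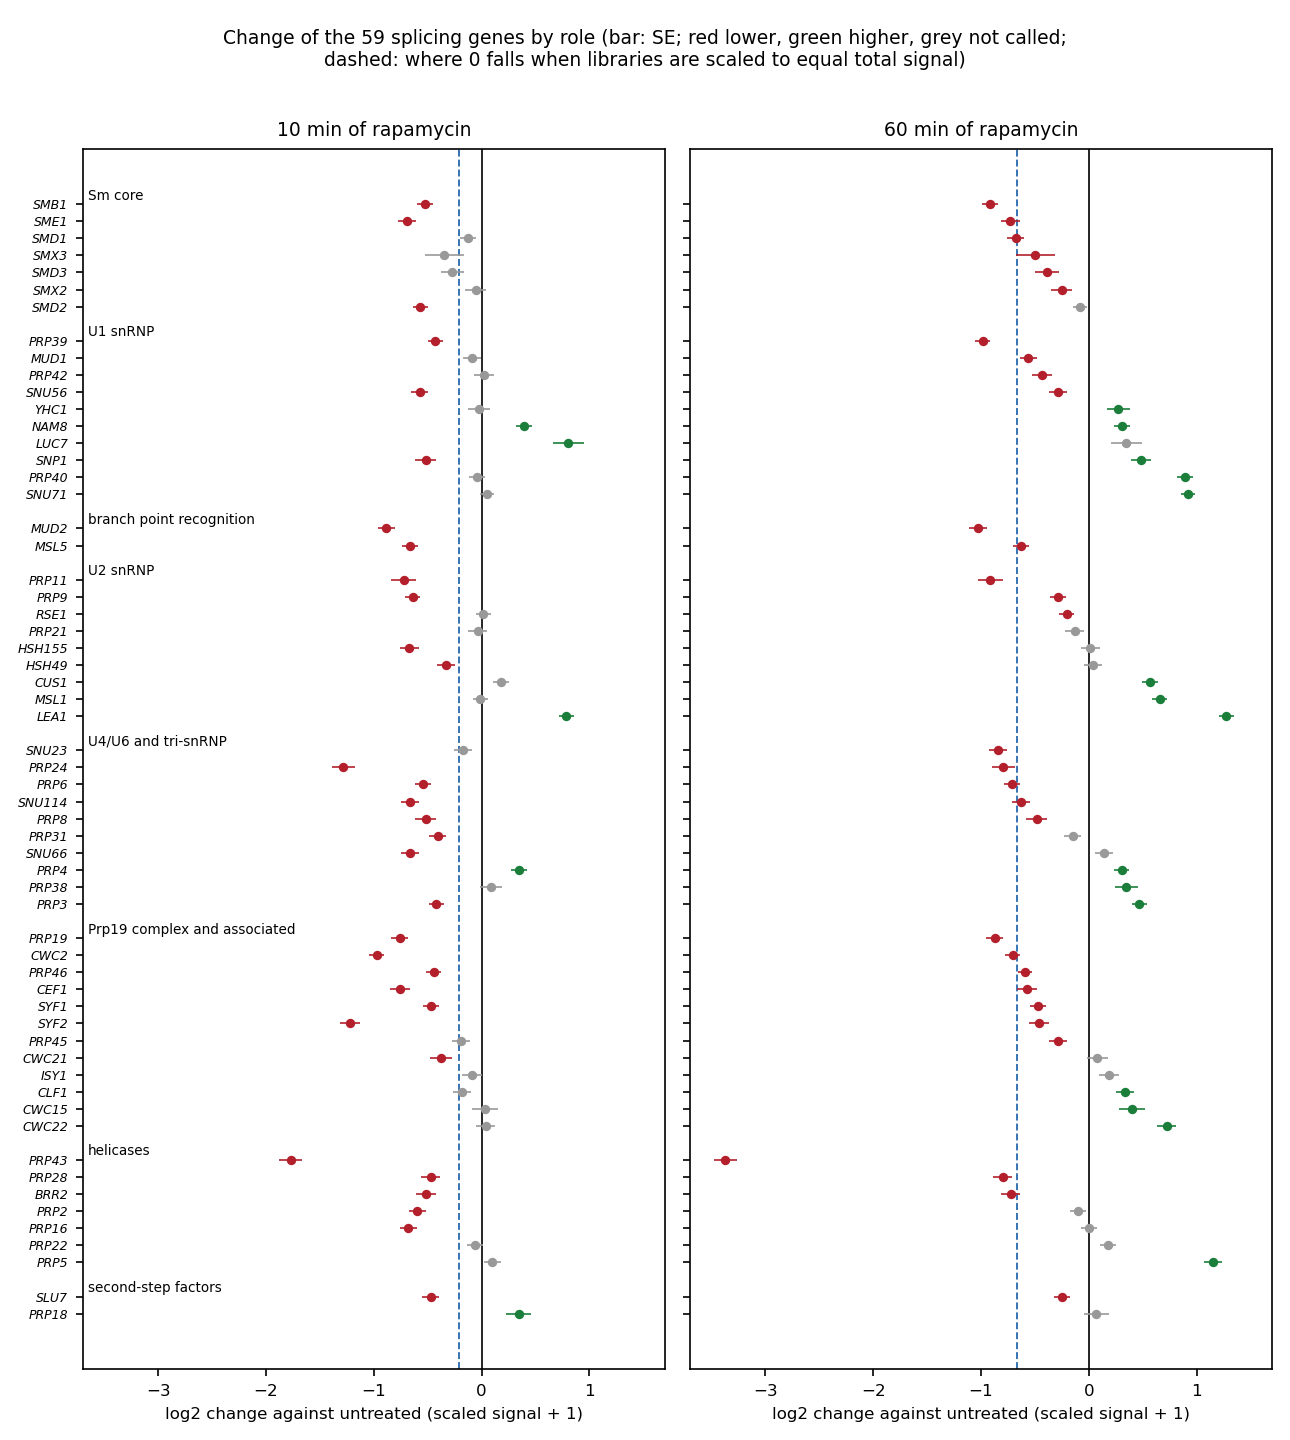
Log2 change of each of the 59 splicing genes against untreated cells at 10 min (left) and 60 min (right), on log2 of scaled signal plus 1, with genes grouped by role and bars of 1 SE. Red genes were lower and green genes higher by limma on the deposited scale, and points right of the dashed line lie above 0 under total-signal scaling, as most do at 60 min. PRP43 stands apart at -3.37.

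The Sm proteins form the ring that all the spliceosomal snRNPs except U6 share. On the deposited scale, 6 of the 7 Sm genes were lower at 60 min (85.7%, against 38.5% of all genes). At 10 min 3 were lower (42.9%, against 30.2%), with 0 higher at either time, and the median at 60 min was -0.50. Under total-signal scaling 1 was lower and 3 were higher at 60 min (14.3% and 42.9%, against 18.3% and 65.3%), with a median of 0.18. SMB1, which encodes SmB (chromosome V, 212587 to 213177), had a scaled signal of 254 and 261 in untreated cells, 177 and 182 at 10 min, and 130 and 143 at 60 min. Its groups did not overlap on the deposited scale. The log2 change was -0.52 at 10 min (limma adjusted p = 0.000552) and -0.92 at 60 min (SE 0.0719, limma adjusted p = 9.67e-06), and it was lower at 60 min under total-signal scaling too (-0.24, limma adjusted p = 0.0235). From 10 to 60 min it fell by 0.39 on the deposited scale (limma adjusted p = 0.00175), while under total-signal scaling its change was above 0, at 0.07 (limma adjusted p = 0.475).

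SMD2, which encodes SmD2 and holds one of the introns shown above (chromosome XII, 694378 to 694800), took another course. Its signal was 184 and 170 untreated, 119 and 119 at 10 min, and 167 and 167 at 60 min. The fall at 10 min was -0.57 (limma adjusted p = 0.000265) and the rise from 10 to 60 min was 0.49 (limma adjusted p = 0.000446), which left -0.08 against untreated cells (limma adjusted p = 0.298; 0.59 under total-signal scaling, where it was called higher). SME1, for SmE, had changes of -0.69 at 10 min and -0.73 at 60 min, and SMD1, for SmD1, had -0.12 and -0.68. The SMD1 model overlaps YGR073C on the other strand over 62.4% of its length, and whether the authors counted by strand is not stated. SMX3, for SmF, had untreated signals of 606 and 399, a wide gap, and its call at 60 min (-0.50) ended without library 21, 22, 23 or 25 (from -0.50 to -0.20, limma adjusted p from 0.0652 to 0.196). SMX2, for SmG, was at -0.25 and SMD3, for SmD3, at -0.39 at 60 min, and both turned to higher under total-signal scaling, at 0.43 and 0.29. The SMX2 call ended without library 23, 24 or 26 (limma adjusted p from 0.143 to 0.153), and the SMD3 call without library 23 (limma adjusted p = 0.0902).

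The U1 snRNP genes split between higher and lower, as all genes tested did. U1 makes the first contact with the 5′ splice site, and the yeast particle carries several proteins beyond its core. At 60 min 5 of the 10 genes were higher (50.0%, against 38.6% of all genes) and 4 lower (40.0%, against 38.5%). The median was 0.29. Under total-signal scaling 7 were higher and 1 was lower (70.0% and 10.0%, against 65.3% and 18.3% of all genes). At 10 min 2 were higher and 3 lower (20.0% and 30.0%, against 26.8% and 30.2%), with a median of -0.03.

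SNU71 and PRP40 encode proteins that bind each other in U1, and both were near their untreated level at 10 min and well above it at 60 min. SNU71 (chromosome VII, 514554 to 516416) had a signal of 92.1 and 92.8 untreated, 94.5 and 96.7 at 10 min, and 174 and 178 at 60 min. Its log2 change at 60 min was 0.92 (SE 0.0642, limma adjusted p = 4.81e-06), after 0.05 at 10 min. PRP40 (chromosome XI, 418310 to 420061) went from 123 and 129 to 117 and 128 and then 237 and 233. Its change at 60 min was 0.90 (SE 0.0729, limma adjusted p = 1.21e-05). It was chosen for its value in every library after its change was seen.

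SNP1, which encodes U1-70K (chromosome IX, 244657 to 245559), had 104 and 90.2 untreated, 65.6 and 69.1 at 10 min and 129 and 144 at 60 min. Both 10 min libraries lay under both untreated ones, and both 60 min libraries over them. The change was -0.52 at 10 min (limma adjusted p = 0.00241; -0.31 under total-signal scaling, limma adjusted p = 0.0235), 0.49 at 60 min (limma adjusted p = 0.00197) and 1.01 between the treated groups (SE 0.0951, limma adjusted p = 5.01e-05). PRP39, which encodes a U1 protein (chromosome XIII, 181474 to 183363), went from 83.4 and 81.3 to 60.2 and 61.8 and then 41.0 and 41.1, with no overlap between groups. Its change at 60 min was -0.99 (SE 0.0706, limma adjusted p = 5.7e-06), or -0.32 under total-signal scaling (limma adjusted p = 0.00616). The steps to 10 min (-0.43) and from 10 to 60 min (-0.56) were called on the deposited scale and not under total-signal scaling (-0.21, limma adjusted p = 0.0519, and -0.10, limma adjusted p = 0.292). The change of PRP42, which encodes a relative of Prp39, was -0.44, and it lost its direction under total-signal scaling (0.24, limma adjusted p = 0.0511).

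MUD1, which encodes the A protein of U1 and holds the second intron shown (chromosome II, 479338 to 480323), had 87.5 and 86.2 untreated, 77.3 and 86.2 at 10 min, and 60.5 and 56.7 at 60 min. The higher 10 min library, at 86.16, lay just under the lower untreated one, at 86.23. Both 60 min libraries lay below all others. Its change at 60 min was -0.56 (limma adjusted p = 0.000366), which total-signal scaling turned to 0.11 (limma adjusted p = 0.298). LUC7, for a protein that helps to choose 5′ splice sites, was higher at 10 min (0.80, limma adjusted p = 0.00214). At 60 min LUC7 stood at 0.35 (limma adjusted p = 0.0572), or at 1.01 under total-signal scaling, where it was called higher. NAM8, for a U1 protein needed for meiotic splicing, was at 0.39 and 0.31, and its call at 60 min ended without library 26 (0.26, limma adjusted p = 0.063). YHC1, for the C protein of U1, was at 0.27 at 60 min, a call that ended without library 22, 24, 25 or 26 (limma adjusted p from 0.059 to 0.27). SNU56 was at -0.58 at 10 min and -0.28 at 60 min, and at 0.39 under total-signal scaling at 60 min. The SNU56 call at 60 min ended without library 26 (limma adjusted p = 0.103).

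The proteins that first read the branch point, MSL5 (the branch point binding protein) and MUD2 (the relative of the large U2AF subunit), were both lower at both times, under either scaling at 10 min. MUD2 (chromosome XI, 294610 to 296193) had 99.9 and 107 untreated, 58.2 and 53.1 at 10 min, and 51.1 and 49.3 at 60 min. The untreated libraries lay far above the other 4. Its change was -0.88 at 10 min and -1.03 at 60 min (SE 0.0811, limma adjusted p = 1e-05), or -0.36 under total-signal scaling. MSL5 (chromosome XII, 380822 to 382252) had 117 and 108, then 69.4 and 71.7, then 72.0 and 72.5, so most of its fall had come by 10 min. The change was -0.66 at 10 min (limma adjusted p = 0.00017) and -0.63 at 60 min (limma adjusted p = 0.000106), or 0.04 under total-signal scaling (limma adjusted p = 0.631).

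The U2 snRNP genes also split. At 60 min 3 of the 9 were higher and 3 lower (33.3% each, against 38.6% and 38.5% of all genes). The median was 0.01. Under total-signal scaling 8 were higher and 0 lower (88.9% and 0%, against 65.3% and 18.3%). LEA1 and MSL1 encode proteins that bind each other on the U2 RNA, and CUS1 encodes a subunit of the SF3b subcomplex. These were the 3 higher genes, at 1.28, 0.66 and 0.57.

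LEA1 (chromosome XVI, 150614 to 151330) had the largest rise of the 59 genes at 60 min under either scaling. It stood at 105 and 99.1 untreated, 171 and 182 at 10 min, and 250 and 247 at 60 min. The 3 groups did not overlap. Its change was 0.78 at 10 min (limma adjusted p = 4.66e-05) and 1.28 at 60 min (SE 0.0694, limma adjusted p = 1.16e-06). In contrast, the SF3a genes PRP9, PRP11 and PRP21 were at -0.29, -0.91 and -0.13 at 60 min, the last without a call (limma adjusted p = 0.201). PRP11 (chromosome IV, 375680 to 376480) had 107 and 137 untreated, 72.9 and 73.0 at 10 min, and 61.4 and 66.2 at 60 min, and under total-signal scaling its 60 min change lost the call at -0.24 (limma adjusted p = 0.0978). PRP9 turned to 0.39 and PRP21 to 0.54 under that scaling, both called higher.

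Of the other SF3b genes, HSH155 encodes the subunit that holds the branch point and HSH49 an RNA-binding subunit. HSH155 had -0.67 at 10 min and 0.01 at 60 min, with a rise of 0.68 between them (limma called it under both scalings). HSH49 had -0.33 and 0.04, and its call at 10 min ended without library 22 or 25 (limma adjusted p from 0.0527 to 0.0754). Under total-signal scaling HSH155 and HSH49 were called higher at 60 min, at 0.68 and 0.72. RSE1, for a large SF3b protein, was at 0.02 and -0.21, and its 60 min call ended without library 23 or 26 (limma adjusted p from 0.095 to 0.118) and turned to 0.46 under total-signal scaling.

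Most genes for U4/U6 and tri-snRNP proteins fell at 10 min. Of the 10, 7 were lower and 1 higher (70.0% and 10.0%, against 30.2% and 26.8% of all genes), with a median of -0.47. Under total-signal scaling 5 were lower and 2 higher (50.0% and 20.0%, against 18.7% and 41.7%). At 60 min 5 were lower and 3 higher on the deposited scale (50.0% and 30.0%, against 38.5% and 38.6%). That became 0 lower and 5 higher under total-signal scaling (0% and 50.0%, against 18.3% and 65.3%). PRP24, which encodes the factor that anneals U4 with U6 after each round, had the second lowest change of the 59 genes at 10 min. It had 68.8 and 59.4 untreated, 25.1 and 26.3 at 10 min, and 34.1 and 39.0 at 60 min (chromosome XIII, 802888 to 804222), and was chosen after its values were seen. The change was -1.28 at 10 min (SE 0.107, limma adjusted p = 3.34e-05), and the rise from 10 to 60 min was 0.49 (limma adjusted p = 0.0044).

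PRP8, SNU114 and PRP6 encode the heart of U5, its GTPase and the bridge between U4/U6 and U5. They had 10 min changes of -0.52, -0.66 and -0.54, all lower under both scalings, and 60 min changes of -0.49, -0.63 and -0.72. Under total-signal scaling the 60 min values were 0.18, 0.04 and -0.05, with no call. SNU66, for a tri-snRNP protein, was at -0.66 at 10 min. At 60 min it stood at 0.14 without a call, or at 0.81 under total-signal scaling, where it was called higher. SNU23 (chromosome IV, 284581 to 285165) moved late. It had 124 and 108 untreated, 101 and 105 at 10 min, and 65.6 and 62.3 at 60 min, a change of -0.84 at 60 min (limma adjusted p = 4.41e-05; -0.17 under total-signal scaling, limma adjusted p = 0.0993). PRP31, for a U4 protein, was at -0.41 and then -0.15. Under total-signal scaling it was at -0.19 and then 0.52, called at 60 min only.

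The U4/U6 genes PRP3 and PRP4 encode partners in one complex and did not move alike. PRP3 (chromosome IV, 1404445 to 1405854) had 92.6 and 92.6 untreated, 69.2 and 68.8 at 10 min, and 124 and 133 at 60 min. Its change was -0.42 at 10 min (limma adjusted p = 0.00153), 0.47 at 60 min (limma adjusted p = 0.000435) and 0.89 between them (SE 0.0700, limma adjusted p = 1.89e-05), but the 10 min call ended under total-signal scaling (-0.21, limma adjusted p = 0.0536). PRP4 (chromosome XVI, 892332 to 893729), the gene mutated in the prp4-1 strains, had 86.9 and 84.7 untreated, 106 and 113 at 10 min, and 104 and 109 at 60 min. It was higher at 10 min by 0.35 (limma adjusted p = 0.00424) and at 60 min by 0.31 (limma adjusted p = 0.00491). The PRP4 model overlaps YPR177C on the other strand over 25.3% of its length. PRP38, for the protein that enables tri-snRNP activation, was at 0.35 at 60 min, a call that ended without library 21 or 26 (limma adjusted p from 0.0539 to 0.111).

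**Figure D2:**
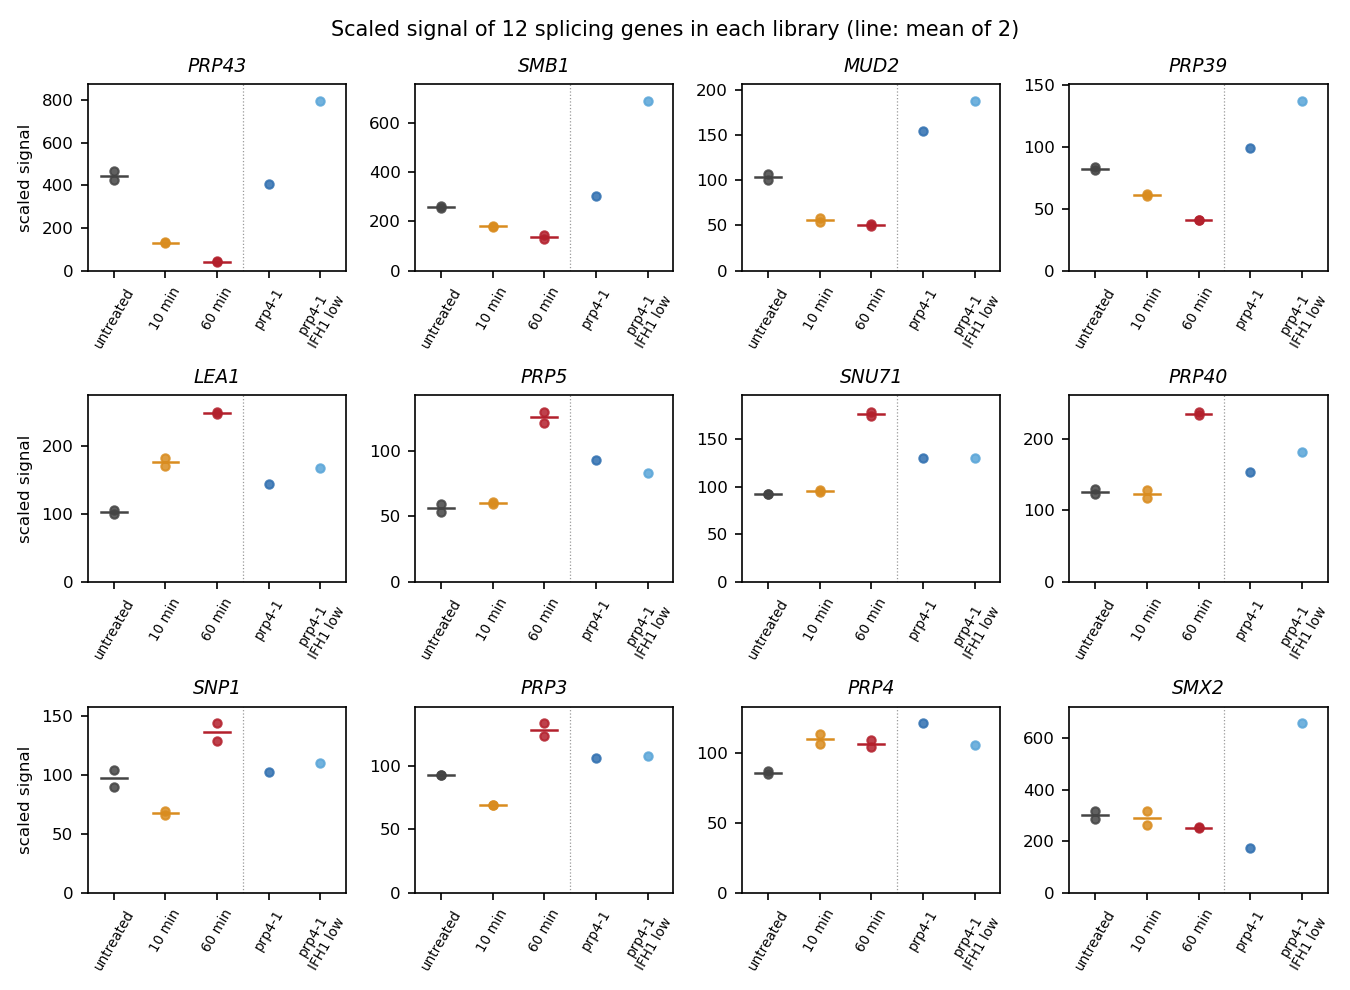
Scaled signal of 12 splicing genes in each library, with 1 point per library and a line at the mean of 2 replicates; the axes start at 0. The dotted line parts wild-type libraries from the prp4-1 pair, which differ in strain and temperature. PRP43 steps down from 467 and 423 to 46.8 and 37.8, and LEA1 steps up from 105 and 99.1 to 250 and 247.

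The Prp19 complex genes showed no rise at 10 min and both directions at 60 min. Of the 12, 7 were lower and 0 higher at 10 min (58.3% and 0%, against 30.2% and 26.8% of all genes), with a median of -0.41. Under total-signal scaling 6 were lower and 0 higher (50.0% and 0%, against 18.7% and 41.7%). At 60 min 7 were lower (58.3%, against 38.5% of all genes) and 3 higher, against 38.6% of all genes. That became 0 lower and 6 higher under total-signal scaling (0% and 50.0%, against 18.3% and 65.3%), so the share called higher was below that of all genes. PRP19, the ubiquitin ligase that names the complex (chromosome XII, 66745 to 68256), had 157 and 168 untreated, 94.0 and 97.1 at 10 min, and 84.0 and 93.0 at 60 min. Its change was -0.76 at 10 min (limma adjusted p = 0.000114) and -0.87 at 60 min (limma adjusted p = 2.25e-05), or -0.20 under total-signal scaling (limma adjusted p = 0.0739). Its model overlaps YLL037W on the other strand over 13.1% of its length.

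SYF2 and CWC2, the latter with its promoter shown above, had the lowest 10 min changes in this group. SYF2 (chromosome VII, 750400 to 751047) had 95.0 and 110 untreated, 44.3 and 42.5 at 10 min, and 70.9 and 77.2 at 60 min, so that the 60 min libraries lay between the other groups. Its change was -1.22 at 10 min (SE 0.0930, limma adjusted p = 2.01e-05), and it rose by 0.76 from 10 to 60 min (limma adjusted p = 0.000213). CWC2, for a protein that contacts the catalytic RNA (chromosome IV, 86207 to 87226), had 127 and 133, then 67.3 and 64.1, then 78.5 and 79.8. Its change was -0.97 at 10 min (limma adjusted p = 1.48e-05) and -0.71 at 60 min, or -0.03 under total-signal scaling (limma adjusted p = 0.717). Both genes were chosen after their values were seen.

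CWC22, for the protein that readies the spliceosome for Prp2 (chromosome VII, 1046731 to 1048464), was at the upper end of the group. It had 55.5 and 64.5 untreated, 60.8 and 62.1 at 10 min, and 96.4 and 103 at 60 min, a change of 0.72 at 60 min (SE 0.0900, limma adjusted p = 0.000152). CLF1, a scaffold protein gene, was at 0.34 and CWC15 at 0.40 at 60 min, and the CWC15 call ended without library 23 or 26 (limma adjusted p from 0.0599 to 0.0613). CEF1, SYF1 and PRP46 had 60 min changes of -0.57, -0.47 and -0.59, which total-signal scaling turned to 0.10, 0.19 and 0.08 without a call. PRP45 was at -0.28, and total-signal scaling turned it to 0.39 with a call in that direction. The PRP45 call ended without library 21 or 26 (limma adjusted p from 0.0528 to 0.106). CWC21 was at -0.37 at 10 min and 0.08 at 60 min, and its 10 min call ended without library 22 (-0.25, limma adjusted p = 0.11). ISY1 was at -0.09 and 0.18, with no call at either time on the deposited scale. Under total-signal scaling CWC21 and ISY1 were called higher at 60 min, at 0.76 and 0.86.

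Helicases act in order, and their genes did not move together. PRP5 acts first and lets U2 bind, PRP28 displaces U1, BRR2 unwinds U4, PRP2 and PRP16 act at the 2 chemical steps, PRP22 releases the product and PRP43 dismantles the spliceosome. At 10 min 5 of the 7 were lower and 0 higher (71.4% and 0%, against 30.2% and 26.8% of all genes). Under total-signal scaling 4 were lower and 1 higher (57.1% and 14.3%, against 18.7% and 41.7%). At 60 min 3 were lower (PRP28, BRR2 and PRP43) and PRP5 was higher (42.9% and 14.3%, against 38.5% and 38.6%). That became PRP43 alone lower and 4 higher under total-signal scaling (14.3% and 57.1%, against 18.3% and 65.3%).

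PRP43 had the lowest change of the 59 genes at both times. It also serves in ribosome assembly, which sets it apart from the other helicases here. Whether that role bears on its change was not tested. PRP43 (chromosome VII, 281634 to 283937) had 467 and 423 untreated, 127 and 132 at 10 min, and 46.8 and 37.8 at 60 min. The 3 groups lay far apart. Its log2 change was -1.77 at 10 min (SE 0.108, limma adjusted p = 5.59e-06) and -3.37 at 60 min (limma adjusted p = 6.14e-08), and under total-signal scaling it was -1.56 and -2.70. For comparison, all 16 measured RNA helicase genes of ribosome assembly and pre-rRNA processing were lower at both times under both scalings, from -4.57 to -1.49 at 10 min and from -4.56 to -1.77 at 60 min. Those for DHR2 and SPB4 were the ends of the 10 min range, and HAS1 and DBP6 those of the 60 min range.

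PRP5 was the other extreme. Its gene (chromosome II, 691925 to 694518 in the deposited models) had 53.1 and 59.2 untreated, 60.7 and 59.6 at 10 min, and 130 and 122 at 60 min. The 60 min libraries stood apart from the other 4, and the change was 1.15 (SE 0.0811, limma adjusted p = 5.16e-06), after 0.10 at 10 min (limma adjusted p = 0.325). PRP2 and PRP16 were lower at 10 min (-0.60 and -0.68) and stood at -0.10 and 0.00 at 60 min, after rises of 0.50 and 0.68 from 10 to 60 min. PRP28 was at -0.47 and -0.80, BRR2 at -0.52 and -0.72, and PRP22 at -0.06 and 0.18. PRP22 had no call at either time on the deposited scale. Under total-signal scaling PRP2, PRP16 and PRP22 were called higher at 60 min, at 0.57, 0.67 and 0.85.

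PRP18 and SLU7, which encode partners in the second chemical step, differed at 10 min. PRP18 (chromosome VII, 506070 to 506825) had 49.7 and 39.5 untreated, 55.8 and 57.4 at 10 min, and 45.0 and 48.3 at 60 min. It was called higher at 10 min (0.34, limma adjusted p = 0.0342), but the call ended without library 22, 23, 24, 25 or 26 (limma adjusted p from 0.0556 to 0.138). SLU7 (chromosome IV, 618497 to 619645) had 120 and 115, then 80.8 and 87.7, then 96.0 and 101. It was lower at 10 min (-0.47, limma adjusted p = 0.00119). At 60 min its -0.25 (limma adjusted p = 0.017) turned to 0.43 under total-signal scaling, and the call ended without library 23 (limma adjusted p = 0.113).

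The promoters printed above belong to genes that held both motifs. PAC was found before 11 of the 59 genes (18.6%, against 17.0% of 6001 R64 protein-coding genes) and the RRPE core before 13, against 21.7% of all. Both were found before 4 (6.78%, against 6.63%), so the motifs were about as frequent here as elsewhere. At 10 min the 4 genes with both, PRP43, SYF2, CWC2 and SNU66, were all lower, from -1.77 to -0.66. Of the 20 genes with either motif, 18 were lower, 0 were higher and the median was -0.66. Of the 39 with neither, 14 were lower and 5 higher, and the median was -0.09.

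The same count over all 5323 tested genes with a window gave 84.7% lower at 10 min with both motifs, 51.0% with either and 22.9% with neither. The median with both motifs was -1.40 in all genes and -1.10 in the splicing genes. With either motif it was -0.26 in all genes and -0.66 in the splicing genes, of which 90.0% were lower. With the RRPE core only, 43.2% of all genes were lower (median -0.16), as were 9 of 9 splicing genes (median -0.66). Among the lowest splicing genes at 10 min, PRP19 and PRP11 had neither motif. A match describes letters only, and divergent genes can share a window. The site GATAAG lay before 6 of the 59 genes (10.2%, against 12.5%) and AGGGG before 6 (10.2%, against 18.8%).

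**Figure D3:**
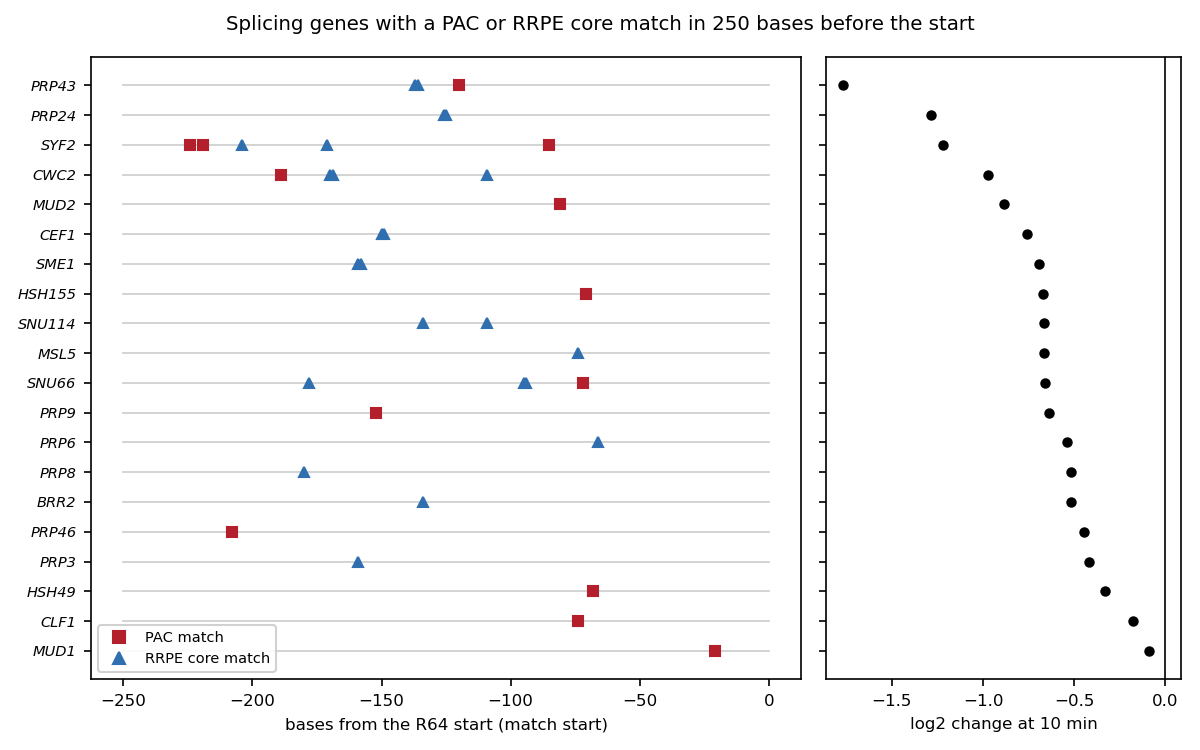
The 20 splicing genes with a PAC (red squares) or RRPE core (blue triangles) match, by bases from the R64 start (left), with each gene's log2 change at 10 min (right), ordered by that change. All 20 points lie below 0, from -1.77 for PRP43 to -0.09 for MUD1, and 18 of these genes were called lower.

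At 60 min splicing genes outside the 59 spanned a like range, but more passed 2-fold. These were 37 others, such as the Lsm proteins of U6, the RES complex and the debranching enzyme. At 60 min 6 of the 37 were lower and 2 higher past 2-fold, against 2 and 2 of the 59. Of all genes tested 33.9% were past 2-fold in either direction, a larger share than in either set. By calls, 15 were lower and 1 higher at 10 min (40.5% and 2.70%, against 30.2% and 26.8% of all genes). At 60 min 19 were lower and 7 higher (51.4% and 18.9%, against 38.5% and 38.6%). Under total-signal scaling 5 were lower and 6 higher at 10 min (13.5% and 16.2%, against 18.7% and 41.7%). At 60 min 7 were lower and 24 higher under that scaling (18.9% and 64.9%, against 18.3% and 65.3%). The 7 lower ones at 60 min were LSM4, LSM5, LSM7, SNU13, STO1, CBC2 and SUB2, and SNU13, whose product also binds small nucleolar RNAs, had the lowest change at -3.22. The highest was ECM2, which encodes a Prp19-associated protein, at 1.33. Among 17 cleavage and polyadenylation genes 11 were lower (64.7%) and 1 higher (5.88%) at 60 min, from HRP1 at -2.17 to CLP1 at 0.35. But 3 were lower (17.6%) and 11 higher (64.7%) under total-signal scaling, near the shares of all genes. All 7 genes for subunits particular to RNA polymerase II were lower on the deposited scale, from RPB3 at -1.28 to RPB7 at -0.28. Under total-signal scaling 3 polymerase genes were lower and 3 higher.

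The prp4-1 pair compared lowered with unaltered IFH1 in strains that both carry prp4-1. The strains also differed at marker genes, with URA3 at 111 and 0 and LEU2 at 1386 and 622 in prp4-1 and with lowered IFH1. Lowered IFH1 and other differences between the strains cannot be told apart here. With 1 library per strain there is no replicate check and no test. Signal of 49 of the 59 splicing genes was higher in the strain with lowered IFH1 and that of 10 was lower. Of all 6222 genes, 3116 were higher and 3106 lower. The median log2 ratio was 0.31, against 0.00 for 6222 genes, or 0.43 against 0.11 under total-signal scaling. Together the 59 genes held 0.254% of the signal in prp4-1 and 0.383% with lowered IFH1, while the ribosomal protein genes held 20.0% and 16.2%. Past 2-fold were 3 higher and 0 lower of the 59 splicing genes, against 8.50% and 11.5% of all genes, which are larger shares.

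Under total-signal scaling 10.3% of all genes lay past 2-fold higher and 9.82% lower. The 3 splicing genes past 2-fold were all Sm genes, and the Sm group had the highest median of the role groups, at 0.82. SMX2 had a signal of 175 in prp4-1 and 658 with lowered IFH1, a 3.74-fold ratio. SMX2 lay between 253 and 318 in all 6 wild-type libraries, which differ from the pair in strain and temperature. SMB1 went from 301 to 687 and SMD2 from 197 to 411. SME1 followed at 390 and 690, while SMX3 was at 457 and 422. Under total-signal scaling 6 genes lay past 2-fold, with CWC2, PRP24 and PRP43 added to those 3. On the deposited scale these were just under it, with ratios of 0.99, 0.98 and 0.97 on the log2 scale. PRP43 stood at 406 and 794, and the 16 helicase genes of ribosome assembly had a median of 1.37.

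The lowest ratios in the pair belonged to RSE1, PRP4 and PRP5. RSE1 had 95.5 in prp4-1 and 66.4 with lowered IFH1, a log2 ratio of -0.52. PRP4, carried as prp4-1 in both strains, had 121 and 105, and PRP5 had 93.3 and 82.9. Total-signal scaling left these 3 at -0.40, -0.08 and -0.05. All 12 Prp19 complex genes had ratios above 0, from 0.17 for SYF1 to 0.99 for CWC2. Of the U1 genes 7 of 10 were above 0, with a median of 0.17, and SNU71 was at 131 in both strains. PRP18 and SLU7 were at -0.07 and -0.04, and total-signal scaling moved them to 0.05 and 0.08.

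**Figure D4:**
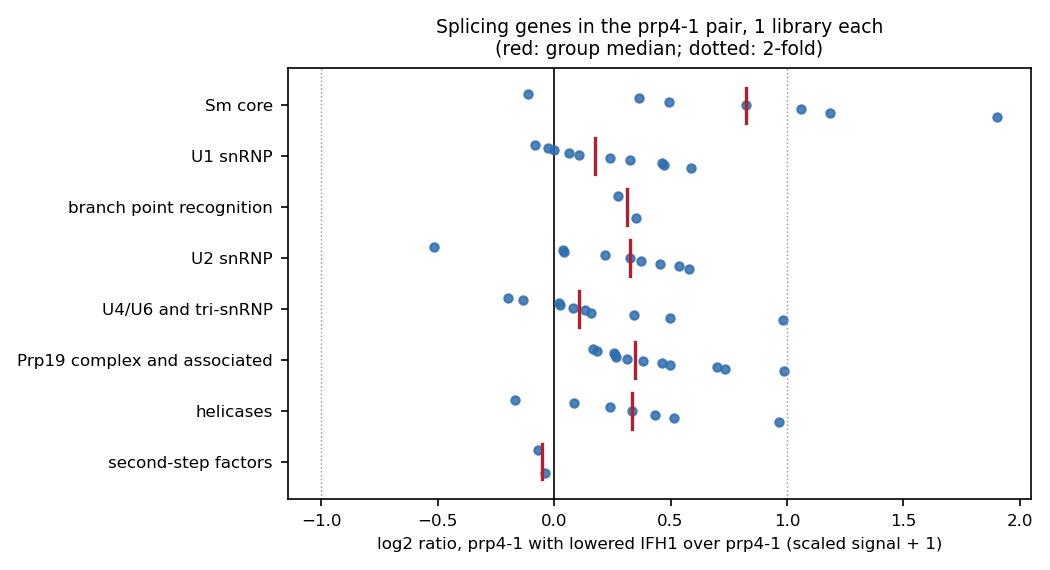
Log2 ratio of scaled signal plus 1 between the strain with lowered IFH1 and prp4-1 for each splicing gene (blue points), by role, with group medians in red and dotted lines at 2-fold. There is 1 library per strain, so no error is shown. The Sm genes reach furthest right, up to 1.90 for SMX2, and 49 of the 59 points lie above 0.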

How the data were processed

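Per the labels, strand-specific libraries (dUTP method) were made from poly(A) RNA. Per the submitters' processing notes, the authors mapped to sacCer3 with TopHat and Bowtie, versions not given in the sources used here. The deposited table holds scaled signal per gene. How the authors summarised reads, whether per length, and how they chose the scaling is not stated, so levels of different genes are not compared. Another 8 columns of unscaled signal, whose names give a group but no replicate, were not used. Exon coordinates (other) came from the deposited gene models. Sequences came from the R64 genome, and 1 promoter sequence is not reported here.

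Columns were assigned to groups by name, so libraries are named by number and were not paired. Wild-type comparisons used limma 3.58.1 in R 4.3.3 with a variance trend, on log2 of signal plus a pseudocount of 1, with all 6 libraries in one fit. It covered the 6127 genes whose mean signal reached 1. Calls used a Benjamini-Hochberg adjusted p under 0.05 over all these genes, and fold changes of low genes are understated. For the prp4-1 pair, log2 ratios were taken over 6222 genes. The method was tested on simulated data. The genes, role groups, lists and tests were chosen with earlier results of these data known. Values in every library are given for the lowest and highest gene of each role group at 60 min, PRP4, PRP43, genes with introns, those called in opposite directions and others stated as chosen later; in the pair, for the 3 highest and 3 lowest ratios at a mean signal of at least 10.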

Additional observations from a re-analysis of the deposited data

Results flagged for a closer look

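SNP1 and PRP3 were flagged because their calls at the 2 times were opposite and the difference itself passed limma's test. How many of all genes did so was not counted. The calls and the test of the difference come from the same fit. Opposite calls thus left that test little room to fail, and it adds no separate support. SNP1 differed by 1.01 on the log2 scale between 60 and 10 min and PRP3 by 0.89. Both 60 min libraries of each gene lay above both 10 min libraries, and the SNP1 directions held under total-signal scaling, while the 10 min call of PRP3 did not (limma adjusted p = 0.0536).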

How the results depend on the processing

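Scaling set many of the directions, above all of genes called lower at 60 min. With each library scaled to the same total signal, calls at 10 min went from 32 lower and 5 higher to 26 and 10. Those at 60 min went from 31 and 15 to 4 and 35, and those of 60 against 10 min from 10 and 28 to 1 and 45. Genes past 2-fold higher in the prp4-1 pair went from 3 to 6. Every wild-type call of higher was kept under total-signal scaling. That scaling changed the sign of 17 genes called lower at 60 min, of which 7 were then called higher (SMD3, SMX2, SNU56, RSE1, PRP9, PRP45 and SLU7) and the other 10 lost their call. The values were 0.29 for SMD3, 0.43 for SMX2, 0.18 for SMX3, 0.11 for MUD1, 0.24 for PRP42, 0.39 for SNU56, 0.0437 for MSL5, 0.46 for RSE1, 0.39 for PRP9, 0.18 for PRP8, 0.0431 for SNU114, 0.10 for CEF1, 0.19 for SYF1, 0.21 for SYF2, 0.39 for PRP45, 0.0809 for PRP46 and 0.43 for SLU7. Between 60 and 10 min the sign changed for SMB1 (0.0683), LUC7 (9e-04) and PRP28 (0.12), without a call, and for RSE1 (0.24), then called higher. Leaving out each library in turn gave 30 to 35 lower and 4 to 6 higher genes at 10 min, 26 to 30 and 11 to 16 at 60 min, and 7 to 13 and 20 to 29 for 60 against 10 min. The other 7 settings (pseudocounts of 0.1 and 10, no filter or a mean of at least 10, median-of-ratios scaling, no variance trend, only the groups compared) ended 11 calls, gained 9 and turned 0 among 177 values each. No paired analysis was possible because the columns carry no replicate numbers. Each group had 2 libraries and the read depth is unknown, which limits how small a change could be called.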
